A study of Homo sapiens with 6 samples.

Results

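Long intergenic noncoding RNAs that carry a numbered LINC symbol were followed in REH cells, an established human line from a B-cell precursor acute lymphoblastic leukaemia, after STAT3 was lowered by a short hairpin RNA. The members are the genes whose symbol is LINC followed by digits alone and whose mean normalized read count over all libraries was 10 or more by the authors' deposited table. This gave 100 of the 874 LINC symbols, out of 26364 genes in all. Of the other LINC symbols, 567 had a mean of 0 and 207 a mean above 0 and under 10. Among LINC symbols, members were thus chosen on a mean that pools both groups, and neither the fold change nor its p-value entered that filter. The LINC family itself was chosen with earlier results of these data known.

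The study compared cells that carried a lentiviral hairpin against STAT3 (shSTAT3, 3 libraries) with cells that carried a scramble hairpin (scramble, 3 libraries), and replicates came from independent experiments. All cells in both groups were of this one line and carried a lentivirus, had spent 3 days under puromycin and were cleared of dead cells ahead of RNA extraction. The number of hairpin sequences used against STAT3 is not stated in those labels. Since the authors' deposited table holds no value per library, the spread between replicates enters only through the authors' p-values.

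Numbered LINC symbols are given to long noncoding RNA genes that lie between protein-coding genes and have no name of their own yet. Most such RNAs are made by RNA polymerase II, capped, spliced and polyadenylated like messenger RNA, but they are on average less abundant, and many stay in the nucleus, where the RNA exosome and its adaptor complexes can degrade them. A few act on the gene beside them or as scaffolds for proteins, a few turned out to encode small proteins, and for many no function is known.

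Of the 100 members, 99 had an adjusted p by the authors' deposited table, 35 of them were higher and 5 lower in shSTAT3 cells at an adjusted p under 0.05, and 59 were not called. The share of members called, 40.4%, was near that of all 12061 genes tested, 44.5%. The split by direction was far from it, as 35.4% of tested members were higher, against 21.3% of all genes tested, and 5.05% were lower, against 23.2%. The median log2 fold change of the tested members was 0.33, with quartiles of −0.06 and 0.67, while the median of all genes tested was 0.0027. These shares describe the table and carry no test of their own, because genes are not replicates. In bulk RNA, fewer cells of a kind and less RNA per cell cannot be told apart.

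**Figure D1:**
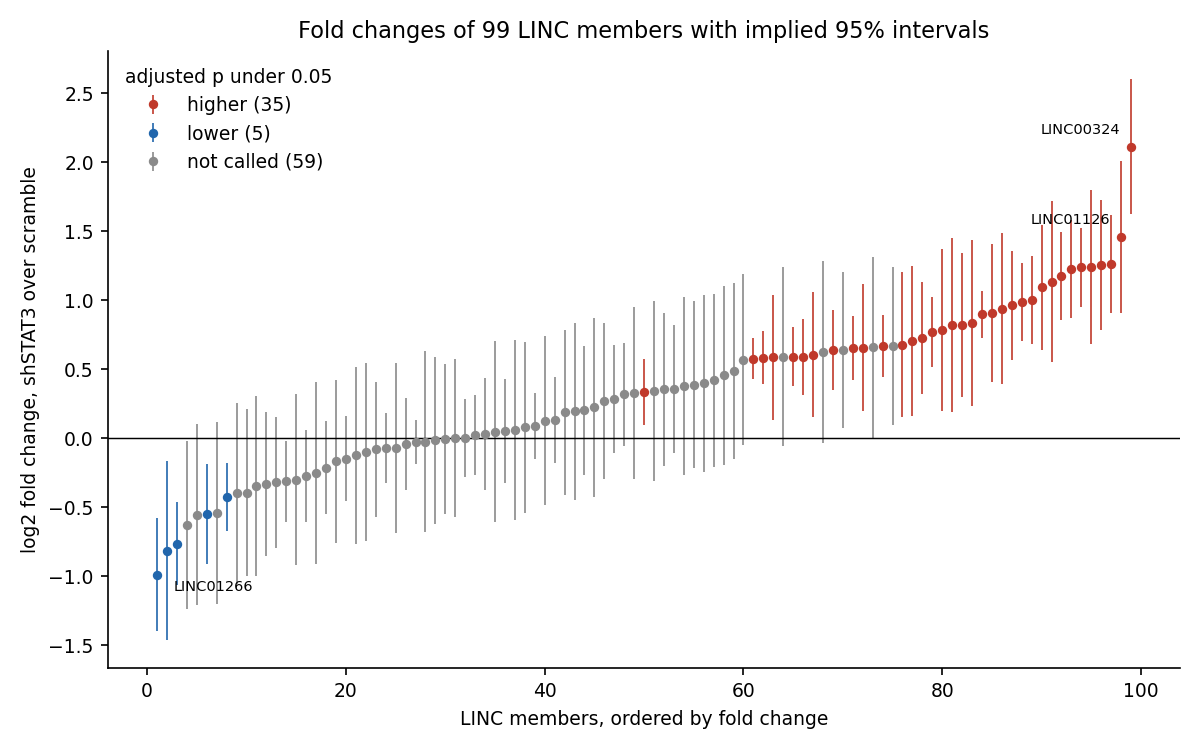
Log2 fold change of each of the 99 tested LINC members, shSTAT3 over scramble, in order of size, with the 95% interval implied by the fold change and its p-value. Red points are the 35 members called higher, blue points the 5 called lower and grey points the 59 not called. LINC00324 is the highest at 2.11, and the lowest member, LINC01266, lies at −0.99.

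STAT3, the target of the hairpin, stood at 29.8% of its scramble level by the authors' deposited table (log2 fold change −1.75, adjusted p = 7.78e-74). The table does not say which group is on top of its fold changes, and a negative value was read as lower in shSTAT3 from this gene alone. Of 14 markers of B-cell precursors, 13 had a mean of 10 or more by the authors' deposited table, while VPREB1 stood at 0. All 6 T and NK cell markers with a row, and all 5 erythroid ones, had means under 10. Myeloid markers summed to 2911 against 93364 for the B-cell precursor markers, and most of that sum was MPO, with a mean of 2330 and no call by the authors' deposited table (adjusted p = 0.330). The other tested myeloid markers were called in opposite directions, ITGAM at a log2 fold change of 0.33 and CSF1R at −0.81 by the authors' deposited table. ELANE, S100A9 and LYZ, with means of 27.9, 22.2 and 16.0, had no adjusted p and log2 fold changes of −0.29, −0.25 and −0.43. The 3 myeloid markers with means under 10 were S100A8 at −0.19, CD14 at 0.67 and FCGR3A at 0.06. Of 7 fibroblast and epithelial markers, 5 had means under 10, and both tested ones were lower, PDGFRB at −0.27 with a mean of 806 and COL1A1 at −0.75 with a mean of 51.3 by the authors' deposited table. Of 13 tested B-cell precursor markers, 2 were higher and 6 lower in shSTAT3 cells, and the part of these marker genes in the LINC results was not tested.

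LINC RNAs were a small part of the transcriptome. The 100 members summed to 17515 normalized counts per library, 0.153% of the total of all genes, and their median mean was 42.5 against 411 for all genes tested. Only 4 members had a mean of 1000 or more, 45 lay between 50 and 1000, and 51 were under 50. Precision differed with the level. The standard error that fold change and p-value imply together had a median of 0.32 on the log2 scale for members with a mean under 50, and of 0.13 for those with a mean of 200 or more.

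**Figure D2:**
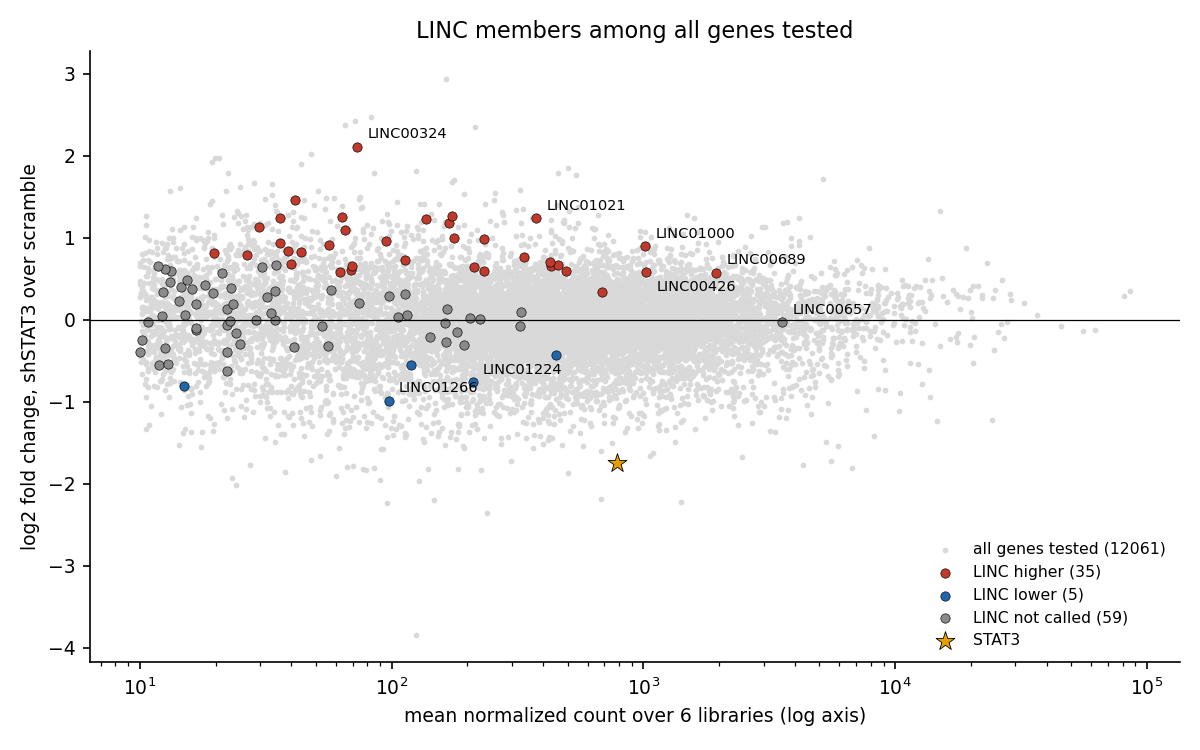
Mean normalized count over the 6 libraries (log axis) against log2 fold change, shSTAT3 over scramble, for the 12061 genes tested (light grey) and the 99 tested LINC members (coloured by call). The called members have means from 15.0 to 1942, LINC00657 sits on the zero line at 3554, and STAT3 is marked by a star at −1.75.

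Because the table gives one mean and one fold change per gene, group levels below are implied values, namely the pair of normalized counts whose average is the deposited mean and whose ratio is the deposited fold change. The deposited fold changes appear to be shrunken toward 0, most of all for genes with few reads, though the sources do not say so. If so, the implied groups lie closer together than the measured ones did.

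The largest rise was that of LINC00324, on chromosome 17 from 8220642 to 8224043 (GRCh38, GENCODE release 29, minus strand). Its implied level was 119 normalized counts in shSTAT3 cells and 27.4 in scramble cells. That is a 4.33-fold rise by the authors' deposited table (log2 fold change of 2.11, with a 95% interval from 1.62 to 2.60, adjusted p = 9.29e-16). The whole interval lies above the fold change of every other member, though it overlaps the 95% interval of LINC01126, which reaches 2.01.

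LINC01126, an RNA of 1 annotated exon block on chromosome 2, followed with implied levels of 60.8 in shSTAT3 cells and 22.1 in scramble cells (log2 fold change of 1.46 by the authors' deposited table, with a 95% interval from 0.91 to 2.01). LINC00528 on chromosome 22 had implied levels of 245 in shSTAT3 cells and 102 in scramble cells, and LINC01355 on chromosome 1 had 89.4 in shSTAT3 cells and 37.4 in scramble cells. Both rose by about the same factor, 2.40-fold and 2.39-fold by the authors' deposited table. LINC00176, whose gene RefSeq now lists as the protein-coding C20orf204, rose 2.36-fold from a low mean of 36.0 by the authors' deposited table.

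LINC01021 was the most abundant member with at least a 2-fold rise. It is now called PURPL, a p53-induced RNA named as a regulator of p53 levels, and lies on chromosome 5 from 27472292 to 27496401. Its implied level was 526 normalized counts in shSTAT3 cells and 223 in scramble cells (log2 fold change of 1.24 by the authors' deposited table, with a 95% interval from 0.95 to 1.53, adjusted p = 6.34e-16). The nearest protein-coding gene, CDH9, lies 351142 bases away and had a mean of 0. LINC00476, now ERCC6L2-AS1, rose 2.34-fold, and LINC00883, now DUBR, rose 2.26-fold by the authors' deposited table. LINC00921 and LINC01237 completed the 10 members with at least a 2-fold rise, with log2 fold changes of 1.13 and 1.09 by the authors' deposited table. Among all genes tested, 1.61% were called and at least 2-fold higher. No member was called and at least 2-fold lower, against 2.87% of all genes tested. At a 1.5-fold rise or more, 32 of the 99 tested members were called, against 6.96% of all genes tested. The median implied standard error was 0.27 for members and 0.12 for all genes tested, so these shares compare genes of unlike precision.

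The neighbours of these in the order of fold changes were LINC01089 and LINC00342. Their implied levels were 236 and 308 in shSTAT3 cells and 118 and 156 in scramble cells. From LINC00324 down to these, the 95% intervals of adjacent members overlap. For LINC00342, 31.1% of the longest annotated transcript lies in stretches that other genes carry at 97% identity or more, so its count is uncertain.

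The start regions of 7 called members are shown because they are where members that moved together could share letters. They are the 5 highest and the 2 lowest called members among those with a mean of at least 20 and a window. Windows were looked up by LINC symbol, or by the current symbol where that is not of a protein-coding gene. LINC00528 had no window, LINC00176 was not looked up under its protein-coding symbol, and LINC00337 had a mean of 15.0, so these were passed over. Each window runs from 250 bases before to 50 bases after the annotated start, from RefSeq on GRCh38.p14, 5′ to 3′ on the strand of the gene. Capitals mark TTCNNNGAA (the palindrome bound by STAT proteins), TTCCNGGAA (a special case of it), CACGTG (an E-box) and CCAAT, each searched on both strands, so that ATTGG is CCAAT read from the other strand. The first 5 are of members that rose, chr17:8223994-8224293 (minus), chr2:43226961-43227260 (plus), chr1:23285469-23285768 (minus), chr5:27472042-27472341 (plus) and chr9:95875928-95876227 (minus). The last 2 are of members that fell, chr19:23416025-23416324 (minus) and chr3:591855-592154 (plus).
LINC00324: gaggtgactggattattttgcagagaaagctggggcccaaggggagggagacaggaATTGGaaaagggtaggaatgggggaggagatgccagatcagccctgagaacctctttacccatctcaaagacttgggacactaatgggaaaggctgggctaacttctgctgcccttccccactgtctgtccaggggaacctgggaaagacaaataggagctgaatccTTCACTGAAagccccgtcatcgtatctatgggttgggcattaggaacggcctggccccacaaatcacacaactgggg
LINC01126: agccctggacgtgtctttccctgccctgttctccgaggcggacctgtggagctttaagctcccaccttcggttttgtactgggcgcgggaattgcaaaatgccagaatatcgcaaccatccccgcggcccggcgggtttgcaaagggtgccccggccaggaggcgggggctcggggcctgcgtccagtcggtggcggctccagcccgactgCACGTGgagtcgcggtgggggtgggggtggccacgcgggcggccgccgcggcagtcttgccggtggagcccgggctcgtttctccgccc
LINC01355: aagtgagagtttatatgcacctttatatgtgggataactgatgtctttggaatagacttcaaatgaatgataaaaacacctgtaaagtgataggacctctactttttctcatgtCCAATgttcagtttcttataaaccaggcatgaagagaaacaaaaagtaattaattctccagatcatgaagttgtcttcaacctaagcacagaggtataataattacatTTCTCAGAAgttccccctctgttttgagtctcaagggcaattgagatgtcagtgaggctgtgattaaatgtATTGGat
LINC01021: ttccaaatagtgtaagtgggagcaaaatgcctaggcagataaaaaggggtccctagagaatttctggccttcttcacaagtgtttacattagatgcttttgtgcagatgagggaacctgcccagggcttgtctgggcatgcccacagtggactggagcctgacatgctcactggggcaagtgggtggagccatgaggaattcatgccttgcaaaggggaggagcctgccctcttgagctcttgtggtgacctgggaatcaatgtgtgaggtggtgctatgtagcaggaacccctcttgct
LINC00476: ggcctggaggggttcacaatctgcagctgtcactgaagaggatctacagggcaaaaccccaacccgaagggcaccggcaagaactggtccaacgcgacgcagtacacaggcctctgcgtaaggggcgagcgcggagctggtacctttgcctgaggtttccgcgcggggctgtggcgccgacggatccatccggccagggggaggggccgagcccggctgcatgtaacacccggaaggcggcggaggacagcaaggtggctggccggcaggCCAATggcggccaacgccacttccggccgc
LINC01224: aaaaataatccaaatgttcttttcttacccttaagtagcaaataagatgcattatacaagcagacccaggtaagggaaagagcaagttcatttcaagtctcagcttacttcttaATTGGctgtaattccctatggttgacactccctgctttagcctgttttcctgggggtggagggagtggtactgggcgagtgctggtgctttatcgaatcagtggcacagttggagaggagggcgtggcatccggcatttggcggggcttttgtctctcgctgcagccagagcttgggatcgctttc
LINC01266: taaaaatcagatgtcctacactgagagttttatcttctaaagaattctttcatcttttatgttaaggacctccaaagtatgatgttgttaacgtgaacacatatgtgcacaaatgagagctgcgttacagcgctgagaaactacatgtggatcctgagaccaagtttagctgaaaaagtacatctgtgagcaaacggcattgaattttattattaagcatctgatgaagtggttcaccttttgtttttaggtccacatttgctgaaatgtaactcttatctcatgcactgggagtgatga

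TTCNNNGAA stood 27 bases before the start of LINC00324 and 28 bases before that of LINC01355, and CACGTG stood 39 bases before the start of LINC01126. The window of LINC01021 held none of the 4 motifs, and neither did that of LINC01266. These starts are those of RefSeq, and for LINC01355 and LINC01266 GENCODE 29 sets the start elsewhere. By GENCODE, LINC01355 starts at 23286752 on the minus strand and LINC01266 at 536231 on the plus strand. Both windows thus lie inside the GENCODE spans, away from the GENCODE starts. Among the 54 tested members with a window, TTCNNNGAA was found in 5 of 21 that were higher, 0 of 3 that were lower and 1 of 30 that were not called, against 8.18% of all 22114 windows. The others that were higher and held it were LINC01560, LINC01215 and LINC01232. Its special case TTCCNGGAA was found in 1 of the 21 higher, 0 of the 3 lower and 1 of the 30 not called. Among all windows the share with TTCCNGGAA was 1.31%. CCAAT was found in 11 of the 21 higher members and 12 of the 30 not called, against 36.2% of all windows, and CACGTG in 3 and 2 of them, against 7.28%. These are matches of letters in a window and say nothing of binding, and differences between the shares were not tested. The other 46 members had no window under the symbols looked up, which left out the current symbols of protein-coding genes.

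By level per length, taken as the deposited mean divided by the annotated exon length in kilobases, LINC00657 led with 666 normalized counts per kilobase, against a median of 18.6 over the 93 members with exon annotation. LINC00657 is now called NORAD, an RNA of 1 exon induced by DNA damage that binds the Pumilio proteins in the cytoplasm. Its implied level was 3521 normalized counts in shSTAT3 cells and 3586 in scramble cells. The log2 fold change by the authors' deposited table was −0.03, with a 95% interval of −0.19 to 0.13 and an adjusted p of 0.818, so the most abundant member changed by less than its error and the interval leaves room only for small shifts. Other genes carry 32.5% of its transcript at high identity.

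The other 3 members with a mean of 1000 or more rose. LINC00689, on chromosome 7 from 159006522 to 159030195, had implied levels of 2324 in shSTAT3 cells and 1560 in scramble cells (log2 fold change of 0.58 by the authors' deposited table, with a 95% interval from 0.43 to 0.72, adjusted p = 3.66e-13). LINC00426 on chromosome 13 had implied levels of 1233 in shSTAT3 cells and 823 in scramble cells, with the same log2 fold change of 0.58 by the authors' deposited table. LINC01000 on chromosome 7 had 1322 in shSTAT3 cells and 711 in scramble cells, and its adjusted p of 1.78e-22 was the smallest of all members by the authors' deposited table (log2 fold change of 0.90, with a 95% interval from 0.72 to 1.07). The implied standard errors of LINC00689, LINC00426 and LINC01000, at 0.0750, 0.0997 and 0.0881, were under the median of 0.13 for members with a mean of 200 or more.

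LINC00649 on chromosome 21 and LINC00667 on chromosome 18 had log2 fold changes of 0.59 and 0.67 by the authors' deposited table (adjusted p = 6.26e-07 and 6.62e-08). LINC01578, now CHASERR, is an RNA beside the chromatin remodeller gene CHD2 that is known in mouse to hold down expression of that gene. It showed the smallest called rise, 0.33 on the log2 scale by the authors' deposited table (95% interval from 0.09 to 0.57, adjusted p = 0.0170), and CHD2, which starts 488 bases beyond its end, was higher as well, at 0.51. LINC01215, named after its values were seen, had a log2 fold change of 0.71 at a mean of 424 by the authors' deposited table, but an implied standard error of 0.28, more than the 0.11 of LINC00667 at a mean of 456. Its 95% interval of 0.16 to 1.25 is accordingly wide.

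**Figure D3:**
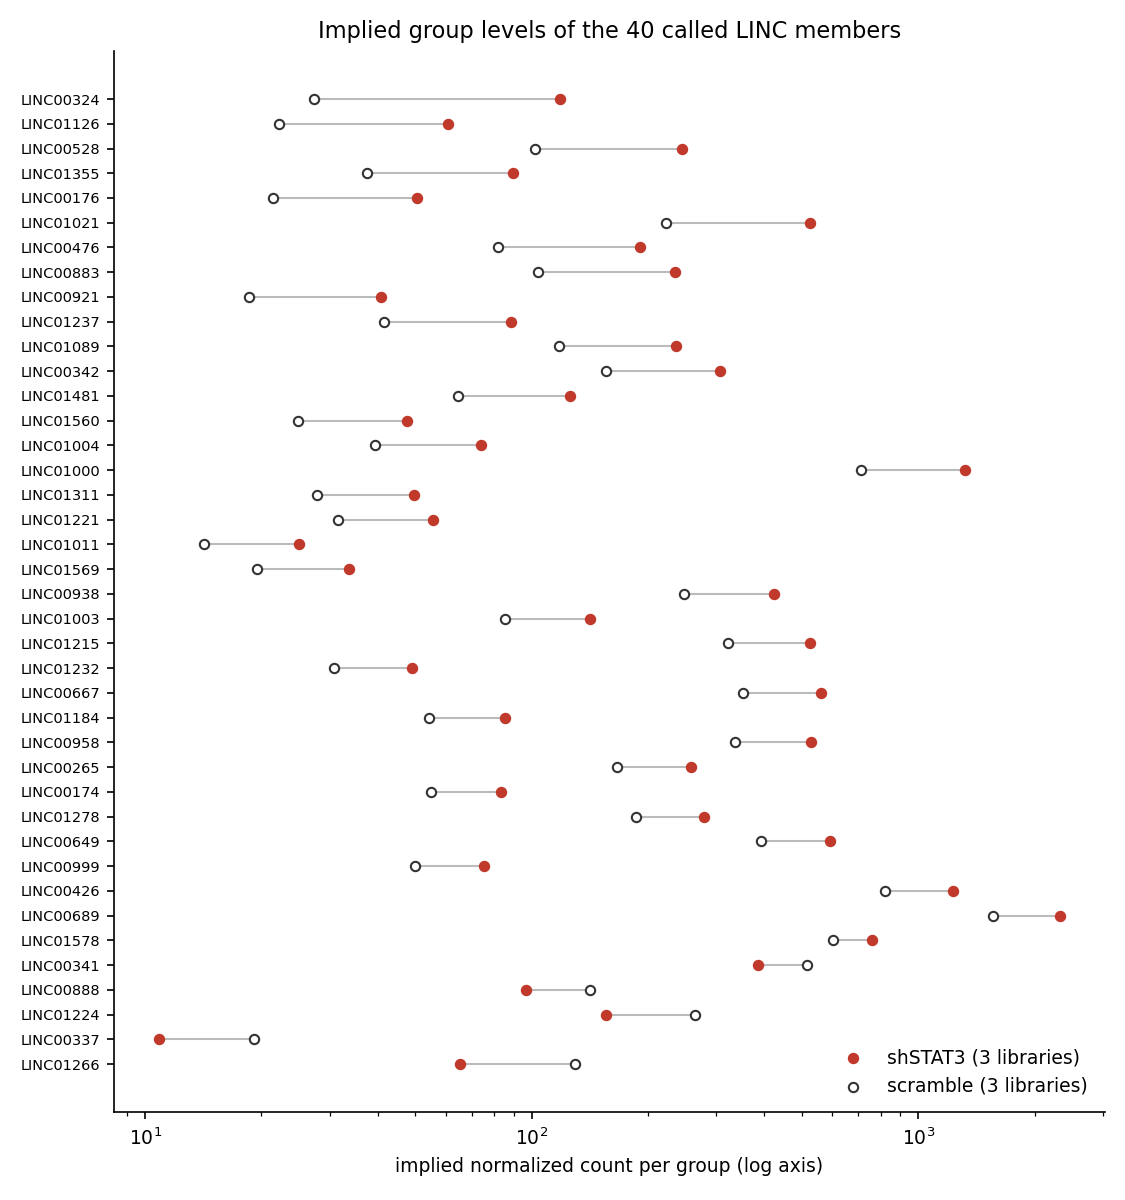
Implied normalized count (log axis) of the 40 called LINC members in shSTAT3 cells (red) and in scramble cells (open circles), ordered by fold change from the top. In the 35 upper rows the shSTAT3 point lies to the right, as for LINC00324 at 119 against 27.4, and in the 5 lowest rows it lies to the left.

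The remaining called rises, of members outside those named above, lay at log2 fold changes between 0.59 and 0.96 by the authors' deposited table. LINC01481, now PRANCR, an RNA named for its role in epidermal progenitors, had implied levels of 126 in shSTAT3 cells and 64.4 in scramble cells. LINC00938 and LINC00958, named after their values were seen, had means of 335 and 432 and rose by 0.77 and 0.65 on the log2 scale by the authors' deposited table. Called rises reached down to a mean of 19.6, that of LINC01011.

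Only 5 members fell. LINC01266, on chromosome 3 from 536231 to 846015, had implied levels of 65.2 in shSTAT3 cells and 129 in scramble cells, which is 50.4% of scramble by the authors' deposited table (log2 fold change of −0.99, with a 95% interval from −1.40 to −0.58, adjusted p = 1.43e-05). LINC01224, on chromosome 19 from 23399233 to 23416075, had 156 in shSTAT3 cells and 264 in scramble cells and fell to 58.8% by the authors' deposited table (log2 fold change −0.77, adjusted p = 3.53e-06). Neither interval reaches the positive side.

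LINC00337, now ICMT-DT, lay at −0.81 with a mean of only 15.0 by the authors' deposited table (95% interval from −1.46 to −0.17, adjusted p = 0.0328). LINC00888, now the small nucleolar RNA host gene SNHG33, had a log2 fold change of −0.55 by the authors' deposited table (adjusted p = 0.00837). LINC00341 was at −0.43 by the authors' deposited table (adjusted p = 0.00234), and RefSeq now merges its symbol into SYNE3, a gene for a nesprin of the nuclear envelope. SYNE3 has a row of its own and fell too, at −0.27 by the authors' deposited table (adjusted p = 0.0319). LINC00341 is thus the one member that fell whose symbol now stands for a protein-coding gene.

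Of the 100 symbols, 33 have been replaced in RefSeq, 11 of them by a symbol of a protein-coding gene, 2 by that of a pseudogene and the others by a named noncoding RNA. Among the 11 now protein-coding, 1 was higher and 1 lower, with a median log2 fold change of −0.03. Among the 66 tested members that kept their LINC symbol, 28 were higher and 2 lower, with a median of 0.47, and among the 20 renamed noncoding RNAs 6 were higher and 2 lower, with a median of 0.19. The background stands at 21.3% higher and 23.2% lower for all genes tested. The differences between these subsets were not tested.

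The 4 members fixed in a list of small-protein genes did not pass. LINC01420, now NBDY, encodes a peptide that binds the mRNA decapping machinery of P-bodies, and had implied levels of 335 in shSTAT3 cells and 316 in scramble cells. LINC00493, now SMIM26, had 225 in both groups, with a log2 fold change of 0.003 by the authors' deposited table (95% interval from −0.28 to 0.29). LINC00998, now SMIM30, and LINC00116, now MTLN, a micropeptide of the inner mitochondrial membrane, were at −0.31 and −0.33 by the authors' deposited table (adjusted p = 0.0776 and 0.317). The background here is 44.5% of genes called, and 4 genes are too few to set against it.

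The 59 members that were not called ranged from −0.63 to 0.67 on the log2 scale by the authors' deposited table. At the edge of the threshold, LINC00114 had a log2 fold change of 0.67 and an adjusted p of 0.0501, just outside, and LINC00526 had 0.64 and 0.0593 by the authors' deposited table. LINC01232 at 0.68 (adjusted p = 0.0290) and LINC00337 were the ones just inside. At the edge of the mean, LINC00471, LINC01024 and LINC00634 had means of 10.1, 10.2 and 10.8, and LINC01602, LINC00304 and LINC01125 fell short at 9.94, 9.87 and 9.67 by the authors' deposited table. For a mean near 10 the implied standard error was 0.335, so only large changes could have been called there.

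LINC01559 was the one member without a p-value, at −1.25 on the log2 scale with a mean of 13.3 by the authors' deposited table, and it was left uncalled. In all, 74 genes lacked a p-value though a fold change was given, and 64 of these fold changes were negative.

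The 207 LINC genes with a mean above 0 and under 10 had a median mean of 0.619 normalized counts and a median log2 fold change of 0.016 by the authors' deposited table, and 125 of these fold changes were positive. At an unadjusted p under 0.05 there were 2 of them, against 2.59% of 5640 genes with a mean under 10. These were LINC00235, at a log2 fold change of 0.76 with a mean of 7.73, and LINC00974, at 0.51 with a mean of 1.90 by the authors' deposited table.

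The share of members called grew with the number of reads. At means between 10 and 50, 9 of 50 tested members were higher and 1 lower, against 12.6% and 9.01% of all genes of that range. From 50 to 200, 13 of 29 were higher and 2 lower, against 16.6% and 20.6%. At 200 or more, 13 of 20 were higher and 2 lower, against 24.2% and 26.7%. The excess of higher over lower members was thus seen in each range of means.

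Antisense RNAs and other lincRNAs gave a like split, with few genes lower. Of 228 tested symbols of antisense RNAs, 69 were higher (30.3%) and 9 lower (3.95%), with a median log2 fold change of 0.25. Of 69 other genes that GENCODE annotates as lincRNA, 28 were higher (40.6%) and 2 lower (2.90%), with a median of 0.32. This set leaves out LINC symbols only, so it can share genes with the antisense and SNHG symbols. Of 18 tested small nucleolar RNA host genes (SNHG symbols), 14 were higher (77.8%) and 0 lower, with a median of 0.65, a larger share higher than among LINC members. LINC00888, now SNHG33 and lower, is counted among the LINC members and not here. Protein-coding genes went slightly the other way, with 20.4% higher and 24.9% lower among 10829 tested.

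**Figure D4:**
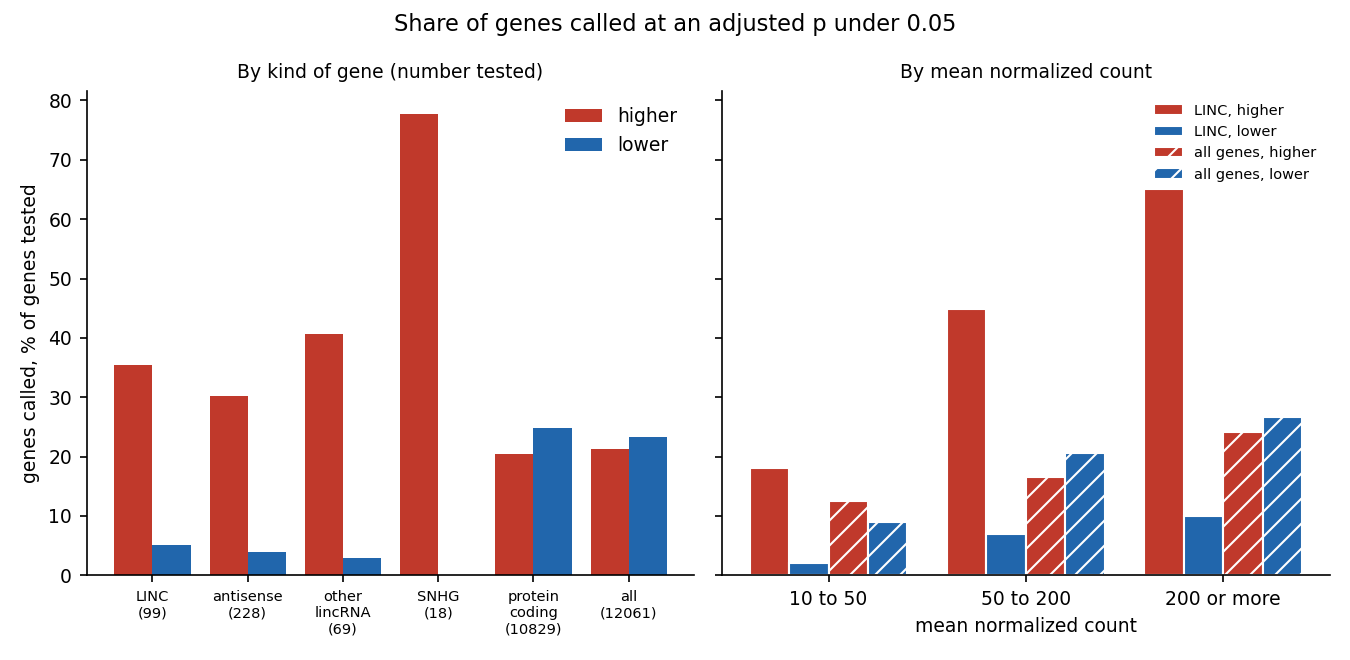
Genes called higher (red) or lower (blue) at an adjusted p under 0.05, as a percentage of genes tested, by kind of gene on the left and by mean normalized count on the right, where hatched bars are all genes tested. LINC members at 35.4% higher and 5.05% lower resemble antisense RNAs at 30.3% and 3.95%, and differ in split from protein-coding genes at 20.4% and 24.9%.

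In a list of long noncoding RNAs with names of their own, 11 of 24 tested genes were higher and 1 lower, with a median log2 fold change of 0.47. The list was not kept apart from the classes above, and EPB41L4A-AS1 and OIP5-AS1 also count as antisense symbols. GAS5, ZFAS1 and DANCR, which host small nucleolar RNAs, had log2 fold changes of 1.20, 1.03 and 1.07 by the authors' deposited table (adjusted p = 1.73e-57, 4.74e-34 and 7.75e-33). Genes of RNA turnover were also looked at, as these complexes act on noncoding RNA. Of 21 tested genes of the nuclear exosome and its adaptors 4 were higher and 7 lower, with a median of −0.09. SKIV2L2, the helicase MTR4 that feeds RNA into the exosome, and the exosome subunits EXOSC8 and EXOSC9 were at −0.77, −1.13 and −0.63 by the authors' deposited table. Of 17 Integrator genes 2 were higher and 3 lower, and INTS8, INTS1 and INTS2 were at −0.49, 0.34 and −0.48 by the authors' deposited table. Of 16 genes of nonsense-mediated decay 5 were higher and 0 lower, among them the kinase gene SMG1 at 0.63 and SMG5 at 0.32 by the authors' deposited table. The shares among all genes tested were 21.3% higher and 23.2% lower, and the part of these genes in the LINC results was not tested.

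Positions came from GENCODE 29 for 93 members and from RefSeq for the other 7. For LINC00341 and LINC00950 the position is that of the protein-coding genes SYNE3 and TMEM8B, which have rows of their own. Values without both, an alternative added after seeing the data, are given beside some of those that differ. Exon lengths ran from 540 to 18164 bases with a median of 3301 over the 92 tested members that GENCODE places, and 17 of them had a single exon block. The single-block members were higher in 6 cases and lower in 0, and those with more blocks were higher in 25 and lower in 5 of 75, against 21.3% and 23.2% of all genes tested. Without LINC00341 and LINC00950, the longest exon length was 14336 bases and the median 3257.5 bases over 90 members. Both are counted among the 75 with more blocks, LINC00341 as lower and LINC00950 as not called. Across members, fold change had a Spearman correlation of −0.0003 with exon length (92 members, and 0.04 over 90 without these), 0.02 with GC content of the longest transcript and 0.23 with the mean, as a description of genes measured in the same libraries. The median GC content was 46.7% for transcripts of higher members and 49.6% for those not called.

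By distance, 22 of the 99 tested members touched another coding gene, 22 lay within 5 kb of one and 55 lay farther off. The classes below go by overlap, strand and order, so a member set apart can still lie within 5 kb, as LINC01578 does. Of the 99 tested, 58 were set down as neither overlapping another protein-coding gene of the table nor starting within 1 kb of the start of one on the opposite strand or up to 5 kb past the end of one on the same strand. Of these 17 were higher and 4 lower, against 21.3% and 23.2% of all genes, or 17 and 3 of 57 without LINC00341. Of the others, 6 had only a RefSeq position and were not classed, and 14 are described below as divergent. Overlaps were counted only for members placed by GENCODE. Those that overlapped another coding gene on the opposite strand, divergent ones and LINC00950 included, were higher in 4 and lower in 1 of 15 cases. Members that overlapped one on the same strand were higher in 4 and lower in 0 of 6. Those that only began within 5 kb past a coding gene were higher in 3 and lower in 0 of 8. LINC01481, placed by RefSeq and higher, also overlaps CNOT2 on the opposite strand and is not in these counts. In 24 of the 93 members placed by GENCODE, LINC00950 among them, some exon overlaps an exon of another gene of the table. Of these 24 members, 7 were higher and 1 lower. The library kit named in the labels does not keep strand, so reads from such overlaps cannot be told apart.

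LINC00324 itself starts 778 bases past the end of CTC1, a telomere maintenance gene on the same strand, which was also higher (log2 fold change 0.67 by the authors' deposited table, adjusted p = 2.15e-10). The exons of LINC00689 overlap those of VIPR2, a receptor gene for vasoactive intestinal peptide on the other strand, at 0.92 with a mean of 33.9 by the authors' deposited table (adjusted p = 0.00422). LINC00337 overlaps ICMT, which methylates prenylated proteins, and that gene fell as well, at −0.60 by the authors' deposited table. Other pairs ran apart. LINC01215 was higher while IFT57, 22202 bases away, was at −2.21 by the authors' deposited table. LINC01011 was higher while NQO2, which it overlaps, was at −0.84 by the authors' deposited table. LINC00094, now BRD3OS, was not called, at −0.07, while BRD3 on the other strand, a bromodomain gene, was at −1.14 by the authors' deposited table. No test of the difference within a pair could be made without values per library.

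Over the 78 tested members whose nearest coding gene was tested as well, 41 pairs had folds of the same sign, and the fold changes had a Pearson correlation of 0.11 and a Spearman correlation of 0.11, as a description of pairs measured in the same libraries. Without LINC00341 and LINC00950, 39 of 76 pairs had the same sign, and the correlations were 0.10 and 0.09. Beside the 29 higher members of this kind, the neighbour was higher in 9 cases, lower in 9 and not called in 11. For all genes tested these shares were 21.3% higher and 23.2% lower.

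**Figure D5:**
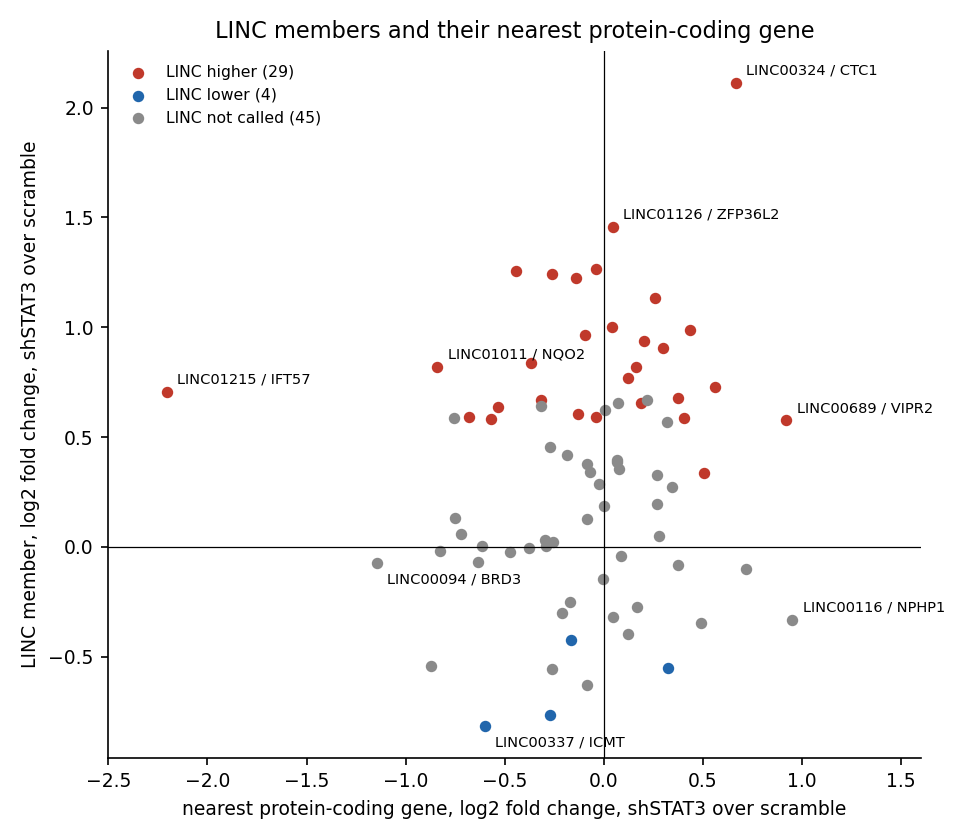
Log2 fold change of the nearest protein-coding gene (horizontal) and of the LINC member (vertical), shSTAT3 over scramble, for the 78 pairs with both genes tested, coloured by the call of the member. The 29 higher members spread over both sides of zero on the horizontal axis, from IFT57 at −2.21 to VIPR2 at 0.92.

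For 14 members the start lies within 1 kb of the start of a coding gene on the opposite strand, an arrangement in which one promoter region serves both directions. Of these members 6 were higher and none lower, while 2 of the 14 coding partners were higher and 1 lower by the authors' deposited table, against 21.3% and 23.2% of all genes tested. Without LINC00950, whose partner HINT2 was the lower one, 13 pairs remain, with 6 members and 2 partners higher and none lower. In 5 of the 6 pairs the coding partner was not called. LINC01126 was at 1.46 beside ZFP36L2, an mRNA decay factor, at 0.05 by the authors' deposited table, with start sites 601 bases apart. LINC00476 was at 1.23 beside ERCC6L2, a DNA repair helicase gene, at −0.14 by the authors' deposited table. LINC01481 was at 0.96 beside CNOT2, of the CCR4-NOT deadenylase, at −0.09 by the authors' deposited table.

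LINC01560 and LINC01184, now SLC12A2-DT, were at 0.94 and 0.66 beside ZNF41 at 0.20 and the ion cotransporter gene SLC12A2 at 0.19, neither partner being called by the authors' deposited table. The exception was LINC01089, at implied levels of 236 in shSTAT3 cells and 118 in scramble cells, beside the histone methyltransferase gene SETD1B at a log2 fold change of 0.45 by the authors' deposited table (adjusted p = 3.92e-07), the only pair in which both were higher. A reverse case, named after its values were seen, was NOTCH1, higher by 0.72, beside LINC01573, now NALT1, at −0.10 with an adjusted p of 0.824 by the authors' deposited table. LINC00893 and LINC00894 lie beside CXorf40A and CXorf40B, a duplicated gene pair on chromosome X, and were at 0.62 and 0.57 without a call by the authors' deposited table (adjusted p = 0.119 and 0.134). Their transcripts share 59.4% and 57.6% of their length with near-identical copies, so the 2 values are not independent.

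By chromosome the higher members were spread over 19 of the 23 chromosomes that held a tested member. Chromosome 7 had 6 of its 8 tested members higher and none lower, against 22.0% of all its tested genes higher, a grouping noticed after the values were seen. They were LINC00689, LINC01000, LINC01003, LINC01004, LINC00174 and LINC00265. LINC01004 lies 1135 bases from KMT2E, and LINC01003 lies 27781 bases from KMT2C. Both of these coding genes were higher, by 0.30 and 0.56 on the log2 scale by the authors' deposited table. LINC00265 had 34.5% of its transcript in near-identical copies.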

How the data were processed

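RNA of 3 shSTAT3 and 3 scramble libraries of REH cells was sequenced, and the authors deposited one table of both groups. Per the file headers it gives each gene's mean normalized count over all libraries (a signal), its log2 fold change, and the p-value before and after adjustment. Per the submitters' processing notes, bcl2fastq 2.19, Trimmomatic, Bowtie2, Picard, featureCounts, DESeq2 and build hg38 were used. Not given in the sources used here: other versions, the annotation, whether strand was used, and the model's terms. The deposited p-values come from that table, no test was refitted, and the depth of single libraries is unknown.

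From it, standard errors were computed as the size of the log2 fold change over the normal quantile of its p-value. They gave the 95% intervals and were checked on simulated data. The formula assumes that each p-value was computed from the fold change deposited with it, which the sources used here do not state. Benjamini-Hochberg values recomputed from the deposited p-values differed from the deposited ones by at most 2.87e-07. Positions came from GENCODE 29 and RefSeq (GRCh38), and copies from blastn 2.17.0 (97% identity, 100 bases). Python 3.11.15, pandas 2.3.3 and scipy 1.17.1 were used.

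The members and lists were chosen with earlier results of these data known. Genes were named by rule: the 12 highest and lowest called members with a mean of at least 20, the 8 most abundant, the small-protein list, 3 on each side of a mean of 10, up to 8 divergent pairs and up to 3 called genes per list. Other members named were chosen after their values were seen. Some genes that the rule names are not reported here. The alternatives tried were the threshold, a minimum fold, the minimum mean, the adjustment, and leaving out members with overlaps, copies or a protein-coding symbol.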

Additional observations from a re-analysis of the deposited data

How the results depend on the processing

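Over 15 settings, counts of called, higher and lower members within 1.5 times the reported ones were taken as unmoved. So were medians within the binomial interval of the reported median (0.13 to 0.57). That interval treats genes as independent, which genes of the same libraries are not, so both bands are loose yardsticks and no tests. By them 46 of 52 values were unmoved, and no median changed sign. Some could not move by construction: no gene under a mean of 10 has an adjusted p, and the 4 members mostly in near-identical copies, left out as an alternative chosen after seeing the data, were not called. With a minimum mean of 100, which leaves 35 members, 21 were called, 18 higher and 3 lower. Requiring at least a 1.5-fold change left 3 lower members. The median log2 fold change was 0.58 with a minimum mean of 50 and 0.058 with no minimum. At adjusted p thresholds of 0.01 and 0.1, 26 and 38 members were higher and 4 and 7 lower. Without members whose exons overlap another gene, 28 were higher and 4 lower, and without those now protein-coding 34 and 4.

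No paired analysis was possible because the deposited table holds no value per library, which also kept replicates from being left out in turn. Low counts limit members with means near 10, and intervals rest on the authors' deposited fold changes, which appear shrunken.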
